A study of Mus musculus with 45 samples.

Results

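The genes described are 10 genes of the phospholipase A2 and prostaglandin pathways, namely Pla2g5, Pla2g2d, Pla2g4a, Pla2g7, Ptgs1, Ptgs2, Ptges, Hpgd, Ptger4 and Hpgds. They were picked by name among the 50600 gene identifiers of the count tables, with earlier results of these data known. Each of the 10 passed the filter on low counts in every comparison. RNA was sequenced from mouse distal colon in 45 libraries. The first cohort held 8 untreated wild-type libraries and 3 groups from mice without Il10 (knockout). Of these knockout libraries, 10 came from the vehicle arm, 9 from the higher dose of compound 13 (30 mg/kg) and 7 from the lower dose (10 mg/kg). Compound 13 selectively blocks the proton-sensing receptor GPR4. A cohort labelled D77 held 5 Il10 knockout libraries given vehicle and 5 given an antibody to p40, the subunit shared by IL-12 and IL-23. All groups other than wild type therefore carried the Il10 deletion. Wild-type mice received no vehicle, so genotype and vehicle cannot be told apart in the comparison of those groups. The labels give no sex, age, strain or time for the first cohort, and whether each library is a different mouse is not stated. The p-values therefore measure only how these libraries vary, and that variation may be technical. The labels of 1 library disagreed on its dose, and it entered no comparison.

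Phospholipases A2 cut fatty acids, among them arachidonic acid, out of membrane phospholipids. The cyclooxygenases Ptgs1 and Ptgs2 turn arachidonic acid into an unstable prostaglandin, which terminal synthases such as Ptges and Hpgds convert to prostaglandins E and D, and the dehydrogenase Hpgd inactivates prostaglandins. In the colon, prostaglandin E is known for supporting the epithelium and its repair, and it acts through a small family of receptors that includes Ptger4. Il10 is an anti-inflammatory cytokine gene, and mice without it develop colitis.

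Depth was 22682471 to 36279743 counts per library. Il10 had 10 counts over the 8 wild-type libraries, in 4 of them, and 0 counts in every knockout library. The colonocyte and goblet cell marker lists were high in every group, with summed levels of at least 2699.63 and 11942.9 CPM (counts scaled to library size). A list of 6 small intestine markers summed to 1.41 to 59.4 CPM, and 2 of its 3 tested members rose in the knockout while 1 of 2 fell with anti-p40. In the vehicle group of the first cohort, library 2 was the highest for 6 of the 10 genes and the lowest for Hpgd, library 7 was the highest for 3 and the lowest for Ptges, and library 3 was the lowest for Pla2g5. Results were also computed without libraries 2 and 3 together, and without each library.

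The promoters of Pla2g5 are shown because, of the 10 genes, it had the largest called rise in the knockout colon. Those of Pla2g7 and Ptgs2 were added after values were seen. The sequences are from RefSeq on GRCm38.p6 and run from 250 bases before to 50 bases after the annotated start. Each of the 10 genes matched the table. Pla2g5 lies on the minus strand of chromosome 4 and has 2 listed starts, at chr4:138863420-138863719 and, nearer the coding exons, at chr4:138819208-138819507. Capitals mark matches to any of 5 motifs searched on both strands: TATAAA, the E-box CACGTG, the cyclic AMP response half-site TGACG, the interferon-gamma activated site TTCNNNGAA, and the kappaB consensus. Neither Pla2g5 promoter held a match.
Pla2g5 promoter 1: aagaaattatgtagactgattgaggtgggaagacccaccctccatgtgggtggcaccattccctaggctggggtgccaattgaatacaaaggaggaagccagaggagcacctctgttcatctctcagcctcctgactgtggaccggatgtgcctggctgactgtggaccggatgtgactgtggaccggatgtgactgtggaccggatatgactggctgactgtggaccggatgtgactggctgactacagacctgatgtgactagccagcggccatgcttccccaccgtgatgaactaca
Pla2g5 promoter 2: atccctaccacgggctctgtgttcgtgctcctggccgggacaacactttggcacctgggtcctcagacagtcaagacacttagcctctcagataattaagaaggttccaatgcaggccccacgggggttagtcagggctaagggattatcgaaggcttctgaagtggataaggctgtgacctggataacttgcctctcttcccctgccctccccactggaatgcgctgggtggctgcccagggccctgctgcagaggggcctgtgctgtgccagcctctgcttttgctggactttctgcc
Pla2g7 (plus strand, chr17:43568201-43568500) held TTCNNNGAA from base -145 relative to the start, a motif found in 8.3% of the 32851 promoters of the table.
Pla2g7 promoter: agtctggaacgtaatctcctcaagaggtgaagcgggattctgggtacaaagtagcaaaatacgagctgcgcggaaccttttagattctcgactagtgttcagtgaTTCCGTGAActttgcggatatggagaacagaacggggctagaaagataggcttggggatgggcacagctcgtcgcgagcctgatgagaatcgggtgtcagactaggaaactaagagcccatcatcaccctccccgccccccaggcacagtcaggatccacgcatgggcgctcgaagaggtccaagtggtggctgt
Ptgs2 (plus strand, chr1:150099781-150100080) held an E-box from base 17 after the start, overlapping a half-site from base 14 on the other strand. The E-box was found in 7.15% of all promoters in the table and the half-site in 20.8%.
Ptgs2 promoter: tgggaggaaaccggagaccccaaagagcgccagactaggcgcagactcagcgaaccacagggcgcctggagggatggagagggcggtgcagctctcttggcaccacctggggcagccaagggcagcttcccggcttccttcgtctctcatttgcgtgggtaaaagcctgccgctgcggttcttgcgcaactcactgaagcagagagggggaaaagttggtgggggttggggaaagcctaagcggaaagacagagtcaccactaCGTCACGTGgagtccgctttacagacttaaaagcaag
These matches describe letters in a fixed window and are not evidence of binding. The promoter of Pla2g2d, which rose more than Pla2g7 in the knockout, held no match and is not shown. Among the 10 genes, TTCNNNGAA was in the Pla2g7 promoter only. TATAAA was found in the second promoter of Pla2g4a, on the other strand from base -200 relative to the start. In the Hpgd promoter it was found from base 5 after the start. The motif was in 13.6% of all promoters. The kappaB consensus, found in 4.51% of all promoters, was in none of the 10 genes.

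Levels of different genes were compared as deposited TPM, which is corrected for transcript length. In wild-type colon Hpgd stood far above the other 9 genes, at 219 ± 29.2 TPM (mean ± SD, n = 8), with no overlap with the next gene. Pla2g4a, the cytosolic phospholipase that supplies arachidonic acid, followed at 18.1 ± 3.43 TPM and Ptgs1, the constitutive cyclooxygenase, at 16.3 ± 4.796 TPM. Pla2g5, a secreted phospholipase, was ninth with 3.29 ± 0.913 TPM, and Ptgs2, the inducible cyclooxygenase, was last with 1.31 ± 0.481 TPM. From Pla2g4a downwards, the libraries of every gene overlapped with those of its neighbour in this order. In knockout colon given vehicle, Hpgd was still first at 133 ± 50.2 TPM (n = 10). Pla2g5 moved from ninth to the second place, at 26.6 ± 12.01 TPM, and Ptgs2 stayed last at 3.57 ± 3.58 TPM. With anti-p40, Pla2g5 stood sixth at 7.29 ± 2.91 TPM (n = 5), against second at 36.6 ± 12.1 TPM in the vehicle group of the same cohort.

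**Figure D1:**
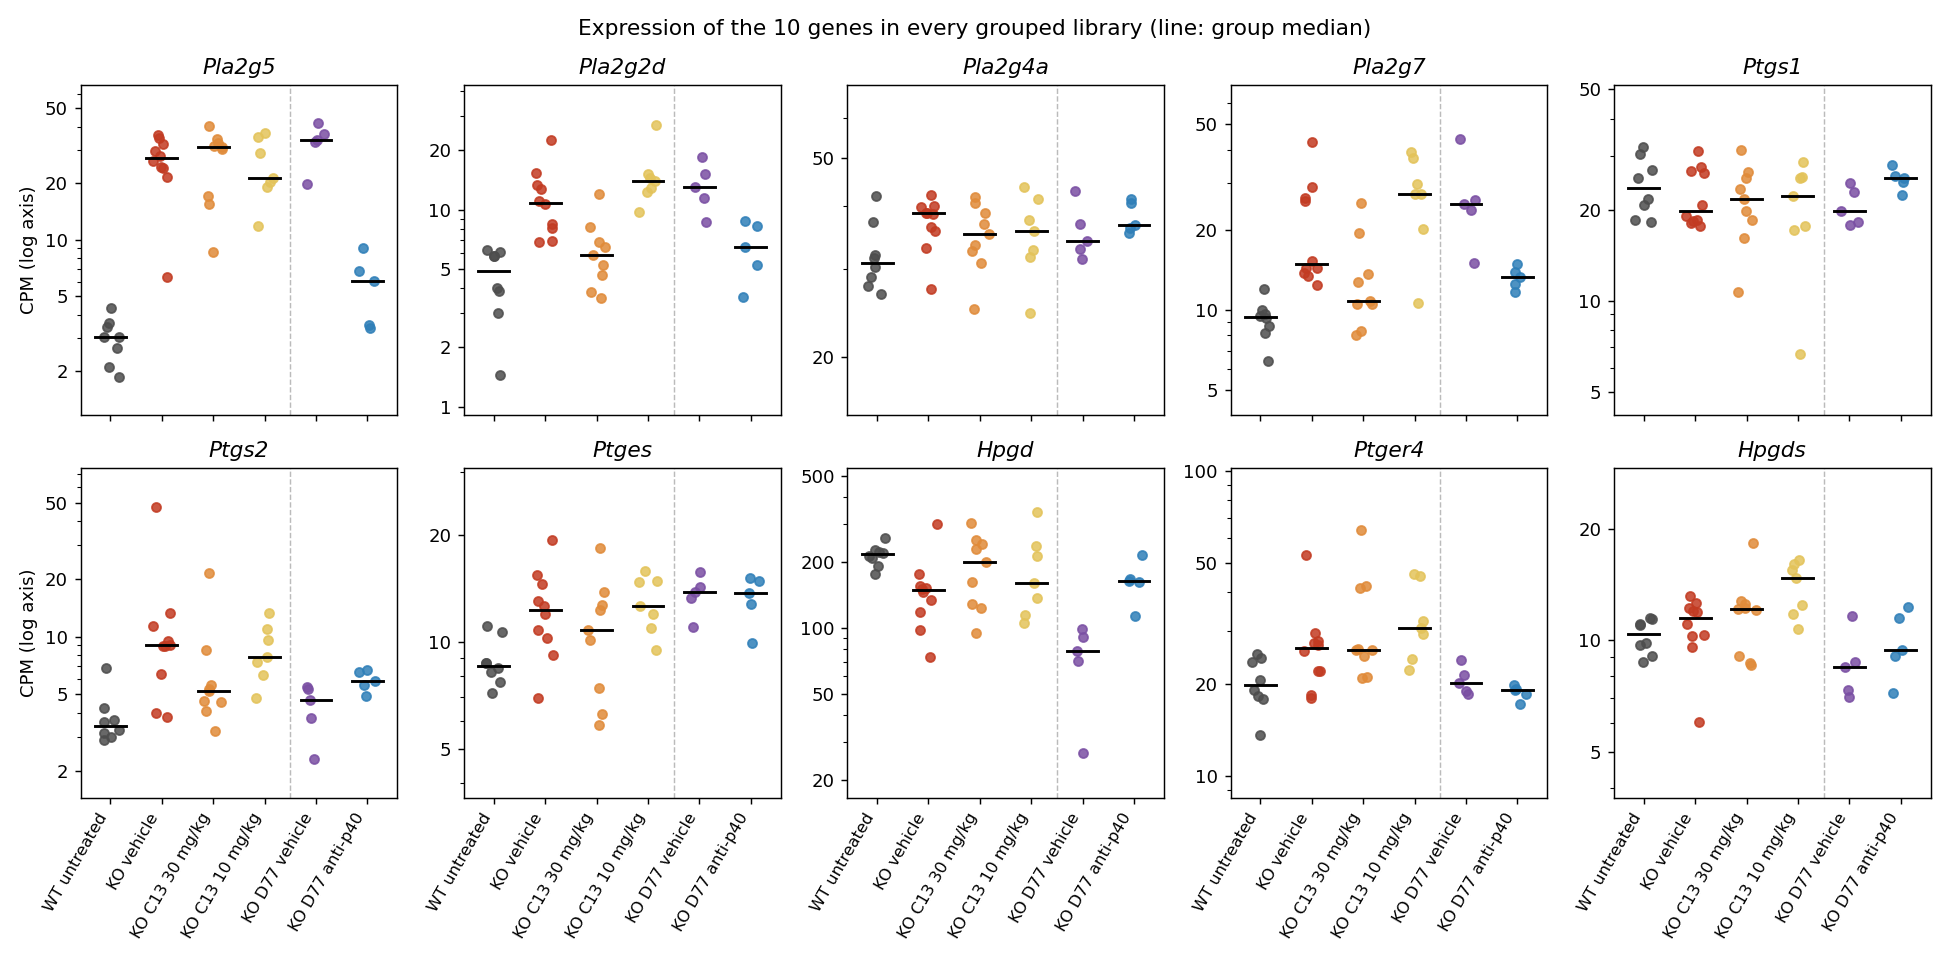
Each panel plots 1 gene, with CPM scaled by TMM over all 45 libraries on a log axis and 1 point per library for the 6 groups, the line marking the group median. The dashed line separates the first cohort from the D77 cohort, and Pla2g5 sits between 1.87 and 4.32 CPM in wild type, below every vehicle-treated knockout library.

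In the knockout colon, Pla2g5, Pla2g2d, Pla2g7, Ptgs2 and Ptges rose and Hpgd fell. Of the 10 genes, 5 passed the threshold upward and 1 downward at an adjusted p under 0.05 (edgeR quasi-likelihood test, Benjamini-Hochberg over all genes). Across all 16435 genes tested, 49.4% were called, 25.2% higher and 24.1% lower, so a call is common in this comparison. The median log2 fold change was 0.44 over the 10 genes and -0.01 over all genes tested. For 3 of the 10 genes (Pla2g5, Pla2g2d and Pla2g7) the libraries of the groups did not overlap, which was true of 5.74% of all genes tested. In deposited TPM the groups overlapped for Pla2g2d and Pla2g7, leaving Pla2g5. With TPM in place of CPM the median of all genes fell to -0.16, so that small differences depend on the scaling.

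Pla2g5 (chromosome 4, 138799244 to 138863482, minus strand) encodes a secreted phospholipase of the group V type. It ranged from 1.87 to 4.32 CPM with a median of 3.04 in wild type, and from 6.35 to 36.1 CPM with a median of 27.1 in knockout vehicle. All 10 knockout libraries exceeded all wild-type libraries, with library 3 at the bottom (6.35 CPM) and the next at 21.6 CPM. This was a log2 fold change of 3.12 ± 0.26 (SE), or 8.69-fold, with an adjusted p of 4.67e-07. Without vehicle libraries 2 and 3 it was 3.25.

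A neighbour bears on this locus. Pla2g2a, the group IIA secreted phospholipase, annotated as a polymorphic pseudogene because it is intact in some mouse strains and disrupted in others, lies on the opposite strand inside a Pla2g5 intron of 39807 bases. It shares 0 exonic bases with Pla2g5 and lies between the starts of its promoters 1 and 2. Mouse strain and strandedness of counting are not given in the sources used here. Pla2g2a ranged from 4.49 to 13.6 CPM in wild type and from 19.2 to 565 CPM in knockout vehicle, again without overlap, and its log2 fold change was 5.33 ± 0.47 (adjusted p = 7.62e-07). Vehicle library 3 was the lowest knockout library for both genes. The count ratio of Pla2g2a to Pla2g5 was not fixed: its median was 2.63 in wild type and 11.9 in knockout vehicle. Whether reads of one gene were counted for the other was not tested.

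**Figure D2:**
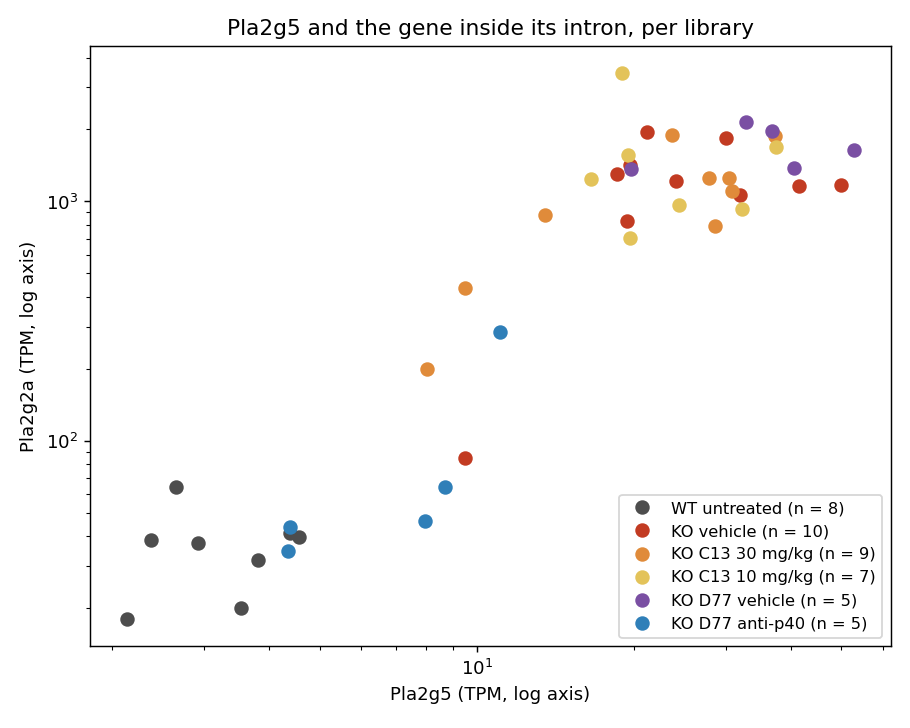
Deposited TPM of Pla2g5 (x axis, log) and Pla2g2a (y axis, log) in the 44 grouped libraries, 1 point each, coloured by group. The 8 wild-type and most anti-p40 libraries lie at the lower left, the vehicle and compound 13 libraries mostly at the upper right, and vehicle library 3, at 9.47 TPM Pla2g5 and 84.8 TPM Pla2g2a, lies between them.

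Pla2g2d (chromosome 4, 138775735 to 138782046) is the next gene of the same cluster, 17197 bases from Pla2g5, and encodes a secreted phospholipase known from lymphoid tissue and dendritic cells. It ranged from 1.45 to 6.25 CPM (median 4.90) in wild type and from 6.82 to 22.6 CPM (median 10.9) in knockout vehicle. The groups did not overlap in CPM, although the gap between them was small. The rise was 1.35 ± 0.28 on the log2 scale (adjusted p = 0.000875), and 1.17 without libraries 2 and 3.

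Pla2g7 (chromosome 17, 43568098 to 43612201) encodes the secreted acetylhydrolase that inactivates platelet activating factor and is known as a macrophage product. Wild-type libraries held 6.42 to 11.9 CPM (median 9.37) and knockout vehicle libraries 12.4 to 42.8 CPM (median 14.8). The groups did not overlap in CPM, and 4 knockout libraries (2, 4, 9 and 10) held 25.6 to 42.8 CPM while the other 6 held 12.4 to 15.3 CPM. Its log2 fold change came to 1.17 ± 0.24 (adjusted p = 0.000767). Its exons share 319 bases with an antisense gene, 1700071M16Rik, so part of its count is uncertain. Pla2g4a (chromosome 1, 149829618 to 149961290) was measured at 26.7 to 42.0 CPM in wild type and 27.3 to 42.1 CPM in knockout vehicle, and its log2 fold change of 0.21 (95% interval 0.01 to 0.40) was not called (adjusted p = 0.0729). It was called when wild-type library 7 or 8 or vehicle library 8 was left out, with log2 fold changes of 0.24 to 0.27.

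Of the cyclooxygenases, Ptgs2 rose and no change was detected in Ptgs1. Ptgs2 (chromosome 1, 150100031 to 150108227, 138740 bases from Pla2g4a) ranged from 2.90 to 6.87 CPM (median 3.42) in wild type and from 3.83 to 47.6 CPM (median 9.003) in knockout vehicle. The groups overlapped, with 7 of 10 knockout libraries above every wild-type library. A log2 fold change of 1.68 ± 0.42 (adjusted p = 0.00369) rested in part on vehicle library 2 at 47.6 CPM, 13.3 CPM being the next highest. Without that library it was 1.12 and was still called (adjusted p = 0.00159). Ptgs1 (chromosome 2, 36230426 to 36252272) ranged from 18.3 to 32.4 CPM in wild type and 17.7 to 31.4 CPM in knockout vehicle, with a log2 fold change of -0.12 (95% interval -0.41 to 0.17, adjusted p = 0.486). Its exons share 148 bases with Gm43621. As TPM, Ptgs1 was a median of 12.2 times Ptgs2 in wild type (6.88 to 21.2) and 4.38 times in knockout vehicle (0.918 to 14.4), and vehicle library 2 was the one in which Ptgs2 exceeded Ptgs1.

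Among the terminal enzymes, Ptges rose and Hpgd fell by small amounts. Ptges (chromosome 2, 30889471 to 30929863), the inducible prostaglandin E synthase, had 7.20 to 11.1 CPM (median 8.57) in wild type and 6.94 to 19.3 CPM (median 12.3) in knockout vehicle. The ranges overlapped, and 6 of 10 knockout libraries were above every wild-type one. The log2 fold change was 0.48 ± 0.16 (adjusted p = 0.0184), which was not called on TPM with a pseudocount of 1 (0.36, adjusted p = 0.0892). Hpgd (chromosome 8, 56294585 to 56321043) had 176 to 259 CPM (median 217) in wild type and 73.9 to 299 CPM (median 149) in knockout vehicle. Wild type exceeded 8 of the 10 knockout libraries completely, while vehicle library 7, at 299 CPM, lay above all wild-type libraries. Without library 7 the log2 fold change was -0.69. The log2 fold change was -0.53 ± 0.18 (adjusted p = 0.0242), and it was not called when all 6 groups were fitted together (-0.51, adjusted p = 0.0735).

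Hpgds (chromosome 6, 65117293 to 65144908), the hematopoietic prostaglandin D synthase of mast cells and tuft cells, had 8.73 to 11.5 CPM in wild type and 6.01 to 13.2 CPM in knockout vehicle, a log2 fold change of 0.08 (95% interval -0.18 to 0.33, adjusted p = 0.607). Ptger4 (chromosome 15, 5206661 to 5244187), the prostaglandin E receptor coupled to cyclic AMP, had 13.6 to 25.2 CPM in wild type and 17.99 to 52.9 CPM in knockout vehicle. Its log2 fold change of 0.40 (95% interval 0.04 to 0.77) was not called (adjusted p = 0.0639), although DESeq2 called it (0.42, adjusted p = 0.0457), and it was 0.24 without vehicle library 7. Ptger4 shares 82 exonic bases with Ttc33 and 1015 with the pseudogene Gm15937, so its counts are less certain than those of the other genes.

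**Figure D3:**
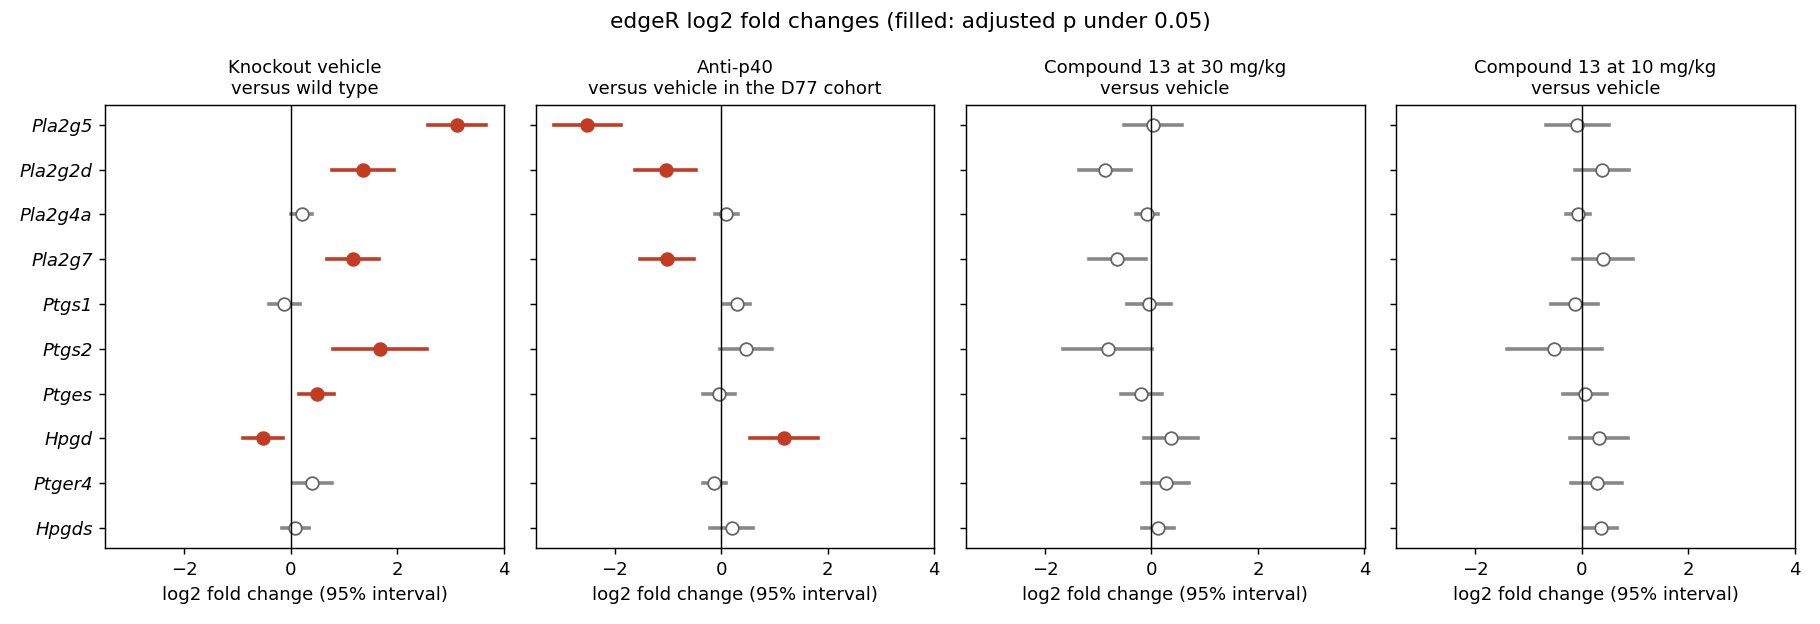
Log2 fold change (x axis) with its 95% interval for the 10 genes in 4 comparisons, filled where the adjusted p was under 0.05. The knockout panel holds 6 filled points, the anti-p40 panel 4, all of opposite sign to the knockout panel, and the compound 13 panels none.

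Cell type markers moved with these genes. All 10 macrophage markers rose in knockout vehicle, with a summed level of 349 to 500 CPM in wild type and 569 to 1687 CPM in knockout vehicle. Of 8 T cell markers 7 rose (6.94 to 26.4 CPM against 30.5 to 81.9 CPM), and of 8 dendritic and follicular markers 5 rose (21.0 to 106 CPM against 40.2 to 212 CPM). Of 5 mast cell markers tested, of 9 listed, 4 rose (2.11 to 3.86 CPM against 5.62 to 49.9 CPM). Of 7 tuft cell markers tested, of 8 listed, 2 rose (15.5 to 30.2 CPM against 17.7 to 46.5 CPM). All 4 neutrophil markers tested, of 8 listed, rose (94.9 to 148 CPM against 119 to 1313 CPM), a sum held mostly by Ly6g, with S100a8 at a mean of 0.131 CPM in wild type and 65.1 CPM in knockout vehicle. All 8 smooth muscle markers fell, from 5091 to 12222.5 CPM to between 463 and 8633 CPM. Among fibroblast markers 6 of 8 fell (985 to 1818 CPM against 624.7 to 1424 CPM), among hindgut Hox genes 4 of 5 (393 to 674 CPM against 174 to 424 CPM) and among endothelial markers 4 of 7 (59.6 to 97.7 CPM against 51.8 to 104 CPM). Among B cell markers 4 of 6 rose (18.6 to 187 CPM against 60.6 to 361 CPM), among goblet cell markers 5 of 7 (14622 to 24056 CPM against 19769 to 42456 CPM), and of 8 colonocyte markers 4 rose and 2 fell (4648 to 6076 CPM against 4665 to 9383 CPM). Vehicle library 2, the highest for Ptgs2, Pla2g2d and Pla2g7, was also the highest for macrophage and neutrophil markers and the lowest for smooth muscle markers. Vehicle library 3, the lowest for Pla2g5, was the highest for smooth muscle markers and the lowest for neutrophil markers. The part of these shifts in the results was not tested. In bulk tissue, fewer cells of a type and less RNA per cell cannot be told apart.

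Anti-p40 moved 4 of the 6 genes that differed in the knockout colon, and each in the opposite direction. Against the vehicle of its own cohort, 3 of the 10 genes were lower and 1 was higher, where 16.7% of the 16470 genes tested were called, 8.35% higher and 8.32% lower. The median log2 fold change was 0.03 over the 10 genes and 0.01 over all genes. The groups did not overlap for Pla2g5, Pla2g7 and Hpgd, and 14.6% of all genes shared that property in this comparison of 5 with 5 libraries.

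Pla2g5 had 41.7, 36.5, 19.8, 34.1 and 33.0 CPM in the vehicle libraries and 6.82, 3.41, 6.05, 3.55 and 9.03 CPM with anti-p40. Treated and vehicle libraries were fully separated. Pla2g5 changed by a log2 fold change of -2.52 ± 0.29, or 5.72-fold lower (adjusted p = 0.000508). Pla2g2a went from 432, 545, 427, 367 and 608 CPM to 11.8, 11.2, 15.98, 8.39 and 74.0 CPM, a log2 fold change of -4.29 ± 0.61 (adjusted p = 0.00150). Anti-p40 library 5 was the highest treated library for both genes, and without it the log2 fold change of Pla2g2a was -5.31. The count ratio of Pla2g2a to Pla2g5 had a median of 14.9 (10.4 to 21.6) with vehicle and 2.64 (1.73 to 8.19) with anti-p40.

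Pla2g2d had 15.1, 8.68, 18.5, 13.0 and 11.5 CPM with vehicle and 6.46, 8.26, 3.60, 5.25 and 8.79 CPM with anti-p40. The groups overlapped by vehicle library 2 and anti-p40 library 5. Its log2 fold change was -1.05 ± 0.26 (adjusted p = 0.0213), and without anti-p40 library 4 it was -0.98 and just missed the threshold (adjusted p = 0.0510). Pla2g7 had 24.96, 14.97, 43.7, 25.9 and 23.7 CPM with vehicle and 12.5, 13.2, 13.8, 11.6 and 14.9 CPM with anti-p40. The treated libraries lay close together, all below the vehicle libraries, of which library 2 was nearest. For Pla2g7 this gave -1.01 ± 0.23 on the log2 scale (adjusted p = 0.0144).

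Hpgd had 78.6, 70.1, 26.6, 90.9 and 99.1 CPM with vehicle and 113, 164, 163, 167 and 216 CPM with anti-p40. All treated libraries were above all vehicle libraries. Hpgd rose, with a log2 fold change of 1.17 ± 0.29 (adjusted p = 0.0206; 0.95 without vehicle library 3), and it was not called with no filter on low counts (adjusted p = 0.0669). As TPM, Hpgd was a median of 12.6 times Ptges with vehicle (3.32 to 14.3) and 26.9 times with anti-p40 (13.6 to 32.0).

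Ptgs2 and Ptges, which rose in the knockout of the first cohort, were not called with anti-p40. The D77 vehicle median of Ptgs2 was 4.65 CPM, against 3.42 in wild type and 9.003 in first-cohort knockout vehicle. For Ptges these medians were 13.8, 8.57 and 12.3 CPM. Levels were not tested across cohorts, so whether either gene was raised in D77 vehicle is not known. Ptgs2 had 4.65, 2.31, 5.46, 5.31 and 3.75 CPM with vehicle and 4.92, 6.69, 5.87, 5.58 and 6.57 CPM with anti-p40, a log2 fold change of 0.46 (95% interval -0.03 to 0.96, adjusted p = 0.177). Ptges had a log2 fold change of -0.04 (95% interval -0.35 to 0.27, adjusted p = 0.875). Ptgs1 was at 17.8 to 24.5 CPM with vehicle and 22.3 to 28.1 CPM with anti-p40, with a log2 fold change of 0.30 that was not called (adjusted p = 0.0855). Leaving out vehicle library 5 brought Ptgs1 past the threshold (0.36, adjusted p = 0.0455). Pla2g4a (0.10, adjusted p = 0.536), Ptger4 (-0.13, adjusted p = 0.390) and Hpgds (0.20, adjusted p = 0.4999) were not called.

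Several marker lists also moved with anti-p40. Of 10 macrophage markers 9 fell (842 to 1683 CPM with vehicle, 469 to 654 CPM with anti-p40), as did 6 of 8 T cell markers (38.8 to 69.4 CPM against 13.5 to 28.8 CPM). Of 4 neutrophil markers tested, of 8 listed, 3 fell (239 to 1418 CPM against 107 to 407 CPM). That sum was held mostly by Ly6g, at a mean of 356 CPM with vehicle and 200 CPM with anti-p40. The mean of S100a8 was 113 CPM with vehicle and 0.338 CPM with anti-p40. Of 8 smooth muscle markers 6 rose (1599 to 4151 CPM against 4205 to 10531 CPM), and of 8 colonocyte markers 3 rose and 1 fell (2700 to 3596 CPM against 4263 to 5557 CPM). Of 6 mast cell markers tested 3 fell (8.80 to 33.3 CPM against 6.50 to 10.01 CPM). Of 7 goblet cell markers 1 rose (11943 to 19881 CPM against 21400 to 39351 CPM). Of 5 tuft cell markers tested, of 8 listed, 1 rose (14.1 to 17.3 CPM against 18.7 to 34.1 CPM). The goblet, tuft, macrophage, T cell, smooth muscle and colonocyte sums did not overlap between the groups. In the goblet list, mean CPM with vehicle and with anti-p40 was 1751 and 10381 for Clca1 and 5684 and 9112 for Fcgbp. For Muc2 these means were 3070 and 3788 CPM, and for Zg16 3013 and 3099 CPM. Of 7 endothelial markers 1 rose (61.8 to 97.0 CPM against 75.1 to 103 CPM). Of 8 dendritic and follicular markers 1 fell (34.3 to 127 CPM against 36.2 to 98.6 CPM), and of 6 B cell markers (29.0 to 289 CPM against 51.8 to 198 CPM), 8 fibroblast markers and 5 hindgut Hox genes none was called. Vehicle library 3 was the lowest for Hpgd and Pla2g5 and the highest for Pla2g7, Pla2g2d and the macrophage and neutrophil lists. The part of these shifts in the results was not tested.

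Compound 13 was compared with the vehicle group of the first cohort at both doses, so these comparisons share their controls. At 30 mg/kg, 0 of the 10 genes and 0 of all 16948 genes tested (0.0%) were called by edgeR. At an unadjusted p under 0.05 there were 2 of the 10 genes and 1004 of all genes (5.92%), and DESeq2 called 1 gene. The 2 genes were Pla2g2d and Pla2g7. Pla2g2d ranged from 3.54 to 12.1 CPM (median 5.90) at 30 mg/kg, against 6.82 to 22.6 CPM with vehicle, and 6 of 9 treated libraries were below every vehicle library. Its log2 fold change was -0.87 ± 0.24 (95% interval -1.36 to -0.38, adjusted p = 0.835). Pla2g7 ranged from 8.01 to 25.2 CPM (median 10.8), with 5 of 9 treated libraries below every vehicle library and a log2 fold change of -0.64 ± 0.26 (95% interval -1.18 to -0.10, adjusted p = 0.835). Without vehicle libraries 2 and 3 these values were -0.71 and -0.50.

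No change of Pla2g5 was detected with compound 13. The gene ranged from 8.61 to 40.3 CPM (median 31.2) at 30 mg/kg and from 11.8 to 37.2 CPM (median 21.3) at 10 mg/kg, with log2 fold changes of 0.03 (95% interval -0.52 to 0.58) and -0.09 (-0.68 to 0.50). These intervals exclude a fall of the size seen with anti-p40 in the D77 cohort. Ptgs2 ranged from 3.21 to 21.5 CPM (median 5.23) at 30 mg/kg, a log2 fold change of -0.82 (95% interval -1.65 to 0.02, adjusted p = 0.843) that became -0.26 without vehicle library 2 and -1.25 without library 8 at 30 mg/kg. The other 6 genes had log2 fold changes between -0.19 and 0.37 at 30 mg/kg. In the authors' deposited table for 30 mg/kg, Pla2g2d stood at -0.70 (adjusted p = 0.387), Pla2g7 at -0.58 (0.477) and Ptgs2 at -0.96 (0.477). The authors' 30 mg/kg group may include the library whose labels disagreed on its dose, which was left out here.

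At 10 mg/kg, 0 of the 10 genes were called, and 2 of all 16948 genes (0.0118%). At an unadjusted p under 0.05 there was 1 of the 10 genes, Hpgds, against 1865 of all genes (11.0%). Hpgds had 10.8 to 16.4 CPM (median 14.8), and 4 of 7 treated libraries were above every vehicle library (log2 fold change 0.36, 95% interval 0.05 to 0.67, adjusted p = 0.395). Pla2g2d had 9.71 to 26.9 CPM (median 14.1) and Pla2g7 10.6 to 39.1 CPM (median 27.3), with log2 fold changes of 0.38 and 0.40 against vehicle, neither called. The other 7 genes had log2 fold changes between -0.52 and 0.32, the lowest being that of Ptgs2, which was 0.04 without vehicle library 2.

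The doses were set against each other because Pla2g2d and Pla2g7 differed between them, so this comparison was chosen after their values were seen. Pla2g2d was 2.38-fold lower at 30 than at 10 mg/kg (log2 fold change -1.25 ± 0.26, 95% interval -1.78 to -0.72), and 8 of 9 libraries at 30 mg/kg were below every library at 10 mg/kg. Pla2g7 was 2.06-fold lower (-1.04 ± 0.28, 95% interval -1.62 to -0.46), with 4 of 9 below all. Neither passed the threshold (adjusted p = 0.0747 and 0.110), and 0 of 16948 genes did (0.0%), with 2451 (14.5%) at an unadjusted p under 0.05. DESeq2 called both genes (adjusted p = 0.00285 and 0.0263), as did edgeR with all 6 groups (0.0152 and 0.0233). In all, DESeq2 called 316 of the 16948 genes that passed the filter, and edgeR with all 6 groups 392 of 18021. B cell markers summed to 45.2 to 222 CPM at 30 mg/kg and 183 to 348 CPM at 10 mg/kg, dendritic and follicular markers to 28.3 to 107 CPM and 112 to 227 CPM, macrophage markers to 493.5 to 987 CPM and 602 to 1990 CPM, and smooth muscle markers to 1014 to 7309 CPM and 451 to 4107 CPM. None of these markers was called, and their part in the difference was not tested.

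The anti-p40 effect was also set directly against the 30 mg/kg effect, each relative to the vehicle of its own cohort. Each treatment was given in 1 cohort only, so treatment and cohort cannot be told apart in this difference. Of the 10 genes 1 was called, Pla2g5, where 1.65% of the 18021 genes tested were. The other 9 missing the threshold does not show that the treatments acted alike on them. Its anti-p40 effect was lower than its compound 13 effect by a log2 difference of -2.55 ± 0.43 (adjusted p = 0.000834). Pla2g2d had a difference of -0.17 (95% interval -1.002 to 0.67) and Pla2g7 of -0.37 (-1.16 to 0.42). Each interval holds no difference as well as a difference of over 1 log2 unit. For Ptgs2 (1.28, 95% interval 0.11 to 2.46, adjusted p = 0.265, and 0.72 without vehicle library 2) and Hpgd (0.81, 0.03 to 1.59, adjusted p = 0.299) the difference was not called.

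A wider list of 63 genes for phospholipases, prostanoid synthases and receptors, prostaglandin transport and breakdown, leukotrienes and platelet activating factor was read alongside. In the knockout, 16 rose and 6 fell of 54 tested, with a median log2 fold change of 0.14. The shares are near those of all genes (25.2% higher) or below them (24.1% lower). Of 15 phospholipases tested 4 rose, and the secreted forms Pla2g2c, Pla2g2f, Pla2g3, Pla2g10, Pla2g12a and Pla2g12b were not called. The 4 that rose were Pla2g2a, the cytosolic forms Pla2g4c (4.30 ± 0.96, adjusted p = 0.00162) and Pla2g4f (0.83 ± 0.20), and Pla2g16 (1.71 ± 0.16, adjusted p = 1.25e-06, no overlap). Pla2g4c was highly uneven, from 0.686 to 110 CPM in knockout vehicle. Its log2 fold change was 2.85 without vehicle library 7 and 1.41 on log2(TPM + 1), and limma voom did not call it (2.51). Of 6 prostanoid receptors tested none rose and 3 fell, namely the thromboxane receptor Tbxa2r (-0.92 ± 0.33) and the prostaglandin E receptors Ptger3 (-0.82 ± 0.22) and Ptger1 (-0.33 ± 0.14, called in 2 of 18 analyses that left out 1 library).

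Of 7 synthases, the thromboxane synthase Tbxas1 rose (0.88 ± 0.22), and Fam213b (-0.49 ± 0.16) and Akr1b3 (-0.35 ± 0.10), which take part in prostaglandin F synthesis, fell. Of 6 transport and breakdown genes, the prostaglandin importer Slco2a1 (0.29 ± 0.11) and the reductase Zadh2 (0.19 ± 0.07, but -0.0029 on log2(TPM + 1)) rose and Slco3a1 fell (-0.46 ± 0.18). Of 18 analyses that left out 1 library, 11 called Slco2a1, 14 called Zadh2 and 7 called Slco3a1. Among 13 leukotriene and lipoxygenase genes 4 rose, namely Alox15 (1.87 ± 0.41), the leukotriene B receptors Ltb4r2 (1.70 ± 0.28) and Ltb4r1 (1.53 ± 0.43), and Ggt5 (0.56 ± 0.15). Of 7 genes of platelet activating factor 5 rose, among them its receptor Ptafr (0.75 ± 0.25), the acyltransferase Lpcat2 (0.61 ± 0.16) and the hydrolases Pafah1b3 (0.42 ± 0.08) and Pafah2 (0.33 ± 0.08). Knockout vehicle libraries also differed from wild type in the marker lists given above.

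With anti-p40, 3 rose and 8 fell of 53 tested, beside 8.35% higher and 8.32% lower among all genes. Beside Pla2g2a, the phospholipases Pla2g16 (-1.20 ± 0.17) and Pla2g4f (-1.03 ± 0.18) fell and Pla2g2c rose (1.38 ± 0.22). Ltb4r2 (-1.04 ± 0.29), the dipeptidase Dpep2 (-1.31 ± 0.27), Ptafr (-1.13 ± 0.31), Pafah1b3 (-0.58 ± 0.10) and Pafah2 (-0.53 ± 0.09) fell, while Dpep1 (1.94 ± 0.46) and Slco3a1 (0.42 ± 0.13) rose. Of 10 analyses that left out 1 library, 3 called Ltb4r2, 6 called Ptafr and 2 called Slco3a1. No prostanoid synthase or receptor was called, of 7 and 6 tested. The knockout and anti-p40 comparisons share no libraries. Of 22 wider genes called in the knockout 8 (36.4%) were called in the opposite direction with anti-p40, which is 72.7% of the 11 called there, and none in the same direction. For the 10 genes these shares were 66.7% and 100%, and for all 16111 genes tested in both they were 26.9% and 80.0%. With compound 13 no wider gene was called, at 30 mg/kg (3 of 55 at an unadjusted p under 0.05) or at 10 mg/kg (7 of 55). The effects of anti-p40 and 30 mg/kg, measured in different cohorts, differed for Pla2g2a (-4.16 ± 0.74), Pla2g16 (-1.38 ± 0.28) and Pafah1b3 (-0.58 ± 0.15). Pla2g2a had -5.20 without anti-p40 library 5, and Pafah1b3 was called in 22 of 29 analyses that left out 1 library and in 5 of 7 other settings.

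**Figure D4:**
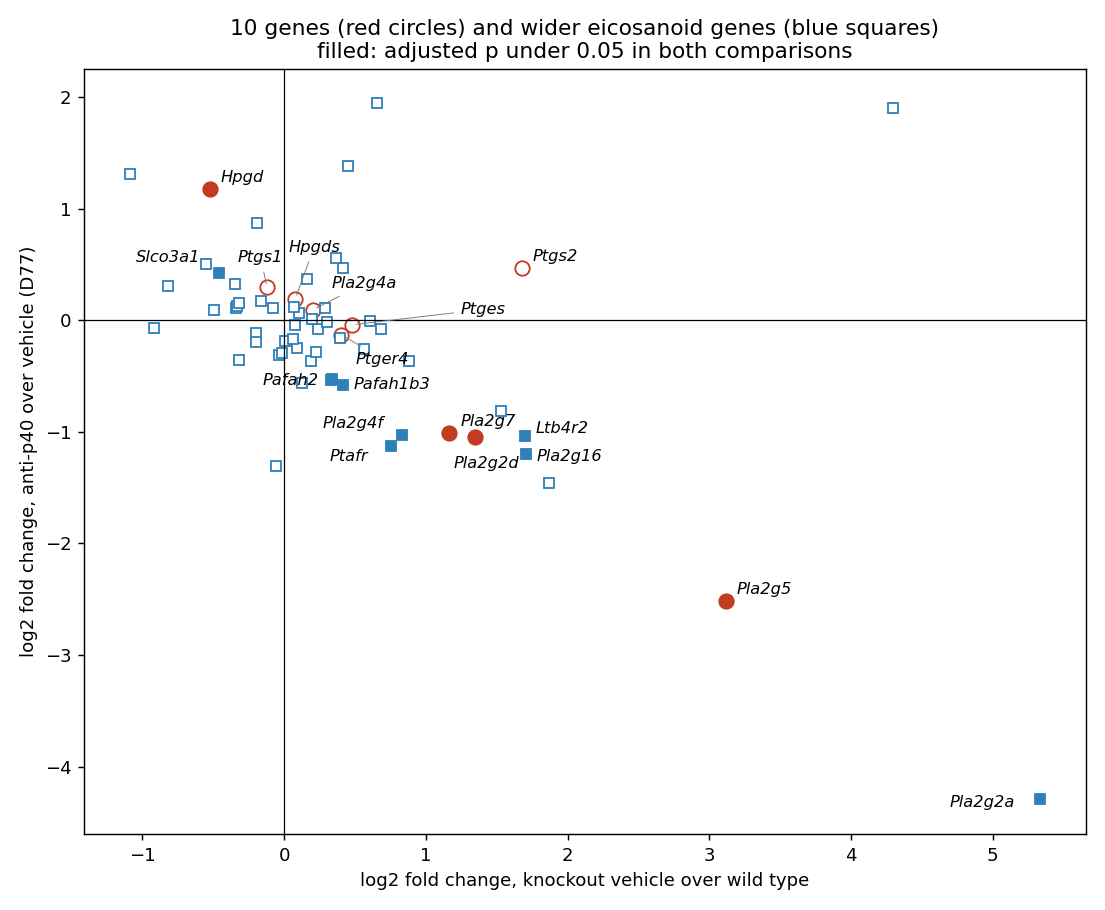
Log2 fold change in knockout vehicle over wild type (x axis) and in anti-p40 over vehicle (y axis) for the 10 genes (red circles) and 53 wider genes tested in both (blue squares), filled where both were called. Filled points lie in the upper left and lower right, with Pla2g5 at 3.12 and -2.52 and Pla2g2a at 5.33 and -4.29, and Ptgs2, at 1.68 and 0.46, is an open point on the upper right.

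Profiles were compared across the 44 grouped libraries as the root-mean-square difference of standardized log2(CPM + 0.5), over 14677 genes with a mean of at least 1 CPM, as a description without a test. All genes share the same libraries and their depth. The nearest profile to Pla2g5 was that of Pla2g2a (0.257, against a median of 1.42 over genes), followed by the chloride channel regulator Clca4b (0.333) and the immunoproteasome subunit Psmb8 (0.334). Pla2g7 was nearest to Mpeg1 (0.253), which encodes a macrophage pore-forming protein, then Ms4a6c and Vcam1. Pla2g2d was nearest to Sema4d (0.350), Trpm2 and Parvg. Ptgs2 was nearest to the cytokine gene Il1b (0.627), the collagenase Mmp13 and Tmem181a. Hpgd was nearest to the epithelial protease gene Mep1a (0.480), Tmem246 and the sodium-proton exchanger Slc9a2. Ptges was nearest to Tmem176a (0.653), Ptgs1 to Ccdc3 (0.629) and Ptger4 to St3gal1 (0.620). Pla2g4a (Fancd2, 0.817) and Hpgds (Gm28661, 0.840) had the most distant nearest profiles. Among the 10 genes themselves, Pla2g2d and Pla2g7 were the closest pair (0.550), and Pla2g7 and Hpgd the most unlike (1.80).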

How the data were processed

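The members and all gene lists were chosen with earlier results of these data known. Libraries were poly(A)-enriched, per the labels. Tools named in the submitters' processing notes, with no role given, are RSEM 1.3.3, STAR 2.7.8a, DESeq2 1.30.1 and cutadapt 3.7, and the build is mm10. The deposited estimated counts per gene are not normalized, and 17.141% (first cohort) and 20.366% (D77) of the values above 0 were not whole. The deposited TPM, corrected for length and depth, were made by the authors, as were the deposited tables of log2 fold changes, p-values and adjusted p-values with a significance flag, a score of -1, 0 or 1. Of 50600 identifiers 50376 matched GENCODE M21 (GRCm38).

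Counts were rounded and tested with edgeR 4.0.16 under R 4.3.3 (quasi-likelihood, robust, TMM, filterByExpr), with Benjamini-Hochberg adjustment over all genes and a threshold of 0.05. Knockout against wild type and anti-p40 against its vehicle each used only their own groups, compound 13 used the 3 knockout groups of the first cohort, and the difference of effects used all 6 groups. SE is the log2 fold change over the square root of F. CPM shown are TMM-scaled over 45 libraries. Adjusted p-values are from edgeR unless another tool is named. The test was checked on simulated counts. Named wider genes were the called ones, at most 4 per list and direction by size, and for each gene the 3 nearest profiles. Pla2g2a values per library, the promoters of Pla2g7 and Ptgs2 the motif TTCNNNGAA, the comparison of the doses and the fits without vehicle libraries 2 and 3 were added after values were seen. Alternatives were DESeq2 1.42.0, limma 3.58.1 (voom, and log2(TPM + 1) or log2(TPM + 0.1) with a mean TPM of at least 0.5), other scaling factors, no filter, other sample sets and leaving out each library.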

Additional observations from a re-analysis of the deposited data

Results flagged for a closer look

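In 60 groups of 1 gene in 1 group of libraries, 10 held a library far from the others by Dixon's criterion. The nominal chance rate is about 1 in 20 for normally distributed values in independent groups. The 10 genes share their libraries, so these counts cannot show an excess over chance. Ptgs2 was flagged in 3 groups: 6.87 CPM in wild-type library 7 (next 4.22), 47.6 CPM in knockout vehicle library 2 (next 13.3) and 21.5 CPM in library 8 at 30 mg/kg (next 8.48). Pla2g5 stood low in knockout vehicle library 3, at 6.35 CPM against 21.6 in the next. Vehicle library 7 was high for Hpgd (299.0 CPM, next 177) and for Ptger4 (52.9 CPM, next 29.5), and library 1 at 30 mg/kg was high for Ptger4 (64 CPM, next 41.9). Pla2g2d reached 26.9 CPM in library 7 at 10 mg/kg (next 15.1). Hpgds was low in vehicle library 1 (6.01 CPM, next 9.61) and high in library 5 at 30 mg/kg (18.3 CPM, next 12.7).

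For Pla2g5 the effects of anti-p40 and of compound 13 at 30 mg/kg differed by a tested log2 difference of -2.55 (edgeR, adjusted p = 0.000834). The treatments were given in different cohorts, so treatment and cohort cannot be told apart.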

How the results depend on the processing

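No paired analysis was possible because replicate numbers follow accession order and pair no libraries. Leaving out 1 library at a time gave 7199 to 9102 genes and 6 to 8 of the 10 genes called for the knockout, 0 and 0 at 30 mg/kg, 1 to 18 and 0 at 10 mg/kg, 1637 to 2522 and 3 to 5 for anti-p40, and 167 to 577 and 1 for the difference of effects. Other settings gave 5 to 7 of the 10 genes for the knockout and 3 to 4 for anti-p40. DESeq2 called 1 gene at 30 mg/kg, 87 at 10 mg/kg, 646 for the difference of effects and 316, with 2 of the 10 genes, for 30 against 10 mg/kg. With all 6 groups edgeR called 129 genes at 10 mg/kg, 1644 for anti-p40 and 392, with 2 of the 10 genes, between doses. At 10 mg/kg, limma called 22 genes on log2(TPM + 1) and 24 on log2(TPM + 0.1), and edgeR 1 without vehicle libraries 2 and 3. Between doses limma called 1 gene on either TPM scale, and edgeR 17 with only the dose groups fitted, without vehicle.

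Apart from Zadh2 in the knockout, the signs that reversed belonged to differences that were not called, including Ptgs2 at 10 mg/kg, which was -0.52 with all libraries. With TPM + 1 and TPM + 0.1, the knockout values were -0.0029 and -0.0026 for Pla2g4a and -0.0029 and -0.0029 for Zadh2, and Hpgds had -0.0003 with TPM + 1. At 30 mg/kg the same scales gave Pla2g5 -0.2147 and -0.2274 and Hpgds -0.0857 and -0.1056, for anti-p40 Ptges 0.0587 and 0.0644, and between doses Pla2g5 -0.1506 and -0.1645. Pla2g5 at 30 mg/kg was -0.1054 without vehicle libraries 2 and 3, and Pla2g4a between doses was 0.0055 with limma voom. With 1 library left out, ranges crossed 0 at 30 mg/kg for Pla2g5 (-0.0906 to 0.145) and Ptgs1 (-0.1364 to 0.0357). At 10 mg/kg they did so for Pla2g5 (-0.2126 to 0.0362), Pla2g4a (-0.1304 to 0.0015), Ptgs1 (-0.2329 to 0.0213), Ptgs2 (-0.6474 to 0.0389) and Ptges (-0.0067 to 0.1546), for anti-p40 for Ptges (-0.1095 to 0.045), and for the difference of effects for Pla2g2d (-0.3302 to 0.007) and Hpgds (-0.0136 to 0.208). The cause was not tested.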

Other observations

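The library whose labels disagree on the dose of compound 13 entered no comparison. It held 21.3 CPM Pla2g5, 13.2 CPM Pla2g2d, 41.2 CPM Pla2g4a, 15.3 CPM Pla2g7, 23.9 CPM Ptgs1, 2.55 CPM Ptgs2, 10.2 CPM Ptges, 183 CPM Hpgd, 25.7 CPM Ptger4 and 11.6 CPM Hpgds.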
